A study of Homo sapiens with 7 samples.

Results

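Deep intragenic Myc peaks are sites that lie far inside protein-coding genes, away from the ends of every annotated gene. A peak was counted as one when its summit fell inside the span of a protein-coding gene, over 10 kb from either end of any protein-coding gene and over 1 kb from the ends of all other annotated genes. This rule kept 10271 of the 42572 peaks on chromosomes 1 to 7 and 9 to 22, in a list of 47017 peaks, and it used positions only. The span of a gene ran from its outermost annotated start to its outermost annotated end, so shorter transcripts of the same gene can start deep inside it. Binding was measured by CUT&RUN, in which an antibody directs a nuclease to a protein on chromatin and the released DNA is sequenced, in HT29, an established cell line that derives from a colon adenocarcinoma. Every library came from cells that had been given oleic acid for 6 h in medium without serum, so no comparison with cells lacking the fatty acid was made. By title there were 3 Myc libraries, 3 IgG controls and 1 input, and the labels name the Myc antibody for the IgG libraries too. The submitters gave 1 peak list in hg38 coordinates for all libraries, so no value here has a replicate spread and no difference was tested. The series title concerns colon cancer in obesity and the enzymes DGAT1 and DGAT2, which make triglyceride.

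Myc is a transcription factor that pairs with MAX and binds the E-box CACGTG and related sequences. It is best known at active promoters rich in CpG, where it raises transcription of genes for growth, ribosome production and metabolism. When Myc is abundant, as in most colon cancers, it is also found at enhancers, many of which lie inside genes. A long gene can further hold alternative promoters, from which shorter transcripts start.

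Among the strongest deep intragenic peaks were several at such internal transcript starts, and 7 of these are shown because they display the range of sequence under them. Each run is the 250 bases before an annotated start, 5′ to 3′ on the gene's strand, from RefSeq on GRCh38.p14, with the Myc E-box CACGTG in capitals. THRAP3 (chr1:36224193-36224442, plus strand), which encodes an RNA-processing and transcription cofactor, held 1 E-box. KDM4C (chr9:6757723-6757972, plus strand), a histone H3 lysine demethylase, held 2. RUVBL1 (chr3:128123813-128124062, minus strand), an ATPase that works with Myc in chromatin complexes, held none. ACLY (chr17:41919023-41919272, minus strand) makes the acetyl-CoA used for fatty acid synthesis, and ACACA (chr17:37359097-37359346, minus strand) converts acetyl-CoA to malonyl-CoA, the next step. Neither held an E-box, but the KLF and SP motif CCGCCC was found 3 times in ACLY and 6 times in ACACA, counting both strands. GALK2 (chr15:49169766-49170015, plus strand), a sugar kinase, and CASP8 (chr2:201257785-201258034, plus strand), the initiator caspase of death receptors, had the highest folds at a start and the sparsest sequence, with 5 CpG each against 20 to 30 in the others. The summit lay within the printed bases in KDM4C only.
THRAP3: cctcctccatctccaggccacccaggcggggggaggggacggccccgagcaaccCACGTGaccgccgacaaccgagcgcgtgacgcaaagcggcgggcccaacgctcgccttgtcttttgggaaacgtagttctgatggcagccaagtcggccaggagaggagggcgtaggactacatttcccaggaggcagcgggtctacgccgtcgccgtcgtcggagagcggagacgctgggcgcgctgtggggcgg
KDM4C: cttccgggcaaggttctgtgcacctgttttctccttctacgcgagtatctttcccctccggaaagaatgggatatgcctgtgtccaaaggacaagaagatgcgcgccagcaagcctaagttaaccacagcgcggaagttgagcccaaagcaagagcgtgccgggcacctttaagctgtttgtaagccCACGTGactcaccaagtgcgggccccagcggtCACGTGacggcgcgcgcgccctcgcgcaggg
RUVBL1: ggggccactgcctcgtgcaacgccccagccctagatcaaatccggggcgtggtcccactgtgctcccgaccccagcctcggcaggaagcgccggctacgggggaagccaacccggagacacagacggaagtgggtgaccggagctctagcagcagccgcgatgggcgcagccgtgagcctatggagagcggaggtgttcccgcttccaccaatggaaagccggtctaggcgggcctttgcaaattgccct
ACLY: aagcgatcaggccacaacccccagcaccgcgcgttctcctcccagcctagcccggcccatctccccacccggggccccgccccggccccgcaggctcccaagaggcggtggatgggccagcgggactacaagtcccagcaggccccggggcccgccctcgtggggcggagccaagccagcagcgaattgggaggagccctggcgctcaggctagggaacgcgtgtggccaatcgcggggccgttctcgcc
ACACA: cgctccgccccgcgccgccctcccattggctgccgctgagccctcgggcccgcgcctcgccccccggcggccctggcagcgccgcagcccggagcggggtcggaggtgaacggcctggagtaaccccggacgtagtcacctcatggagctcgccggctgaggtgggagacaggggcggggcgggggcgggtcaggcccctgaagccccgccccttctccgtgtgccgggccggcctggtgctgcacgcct
GALK2: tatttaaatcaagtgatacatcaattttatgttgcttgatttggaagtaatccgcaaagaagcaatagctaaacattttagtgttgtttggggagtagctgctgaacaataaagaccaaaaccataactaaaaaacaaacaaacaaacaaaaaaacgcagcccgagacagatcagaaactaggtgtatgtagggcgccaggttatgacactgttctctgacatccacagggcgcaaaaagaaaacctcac
CASP8: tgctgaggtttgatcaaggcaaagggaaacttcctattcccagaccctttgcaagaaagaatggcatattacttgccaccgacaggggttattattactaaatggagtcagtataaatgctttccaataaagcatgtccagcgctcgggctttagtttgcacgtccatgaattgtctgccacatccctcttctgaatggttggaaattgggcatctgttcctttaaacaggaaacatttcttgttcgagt

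Deep intragenic peaks were mostly weak. The strength of a peak is given as the authors' fold, the pileup of fragments at the summit over the local control, with 1 added to each. Their median fold was 3.77, with 5% under 2.48 and 5% over 9.35, and their highest was 39.0. The median over all 42572 peaks was 4.27, and over the 10500 peaks within 1 kb of a protein-coding gene end it was 7.06. Peaks in the 8472 deep intergenic positions, which met the same distances outside protein-coding genes, had a median of 3.70. A fold of 10 or more was reached by 407 deep intragenic peaks, or 3.96% (95% Wilson interval 3.60% to 4.36%), against 10.2% of all peaks, 26.3% of those at gene ends and 2.69% of the deep intergenic ones. Deep intragenic peaks were also narrower than those at gene ends, with a median width of 605 bp against 1365 bp. The median width was 711 bp over all peaks and 556.5 bp for deep intergenic ones, so narrow peaks were not particular to gene bodies.  Deep intragenic summits rested on a median pileup of 26 fragments over a control of 5.89. All intervals here cover counting error only.

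**Figure D1:**
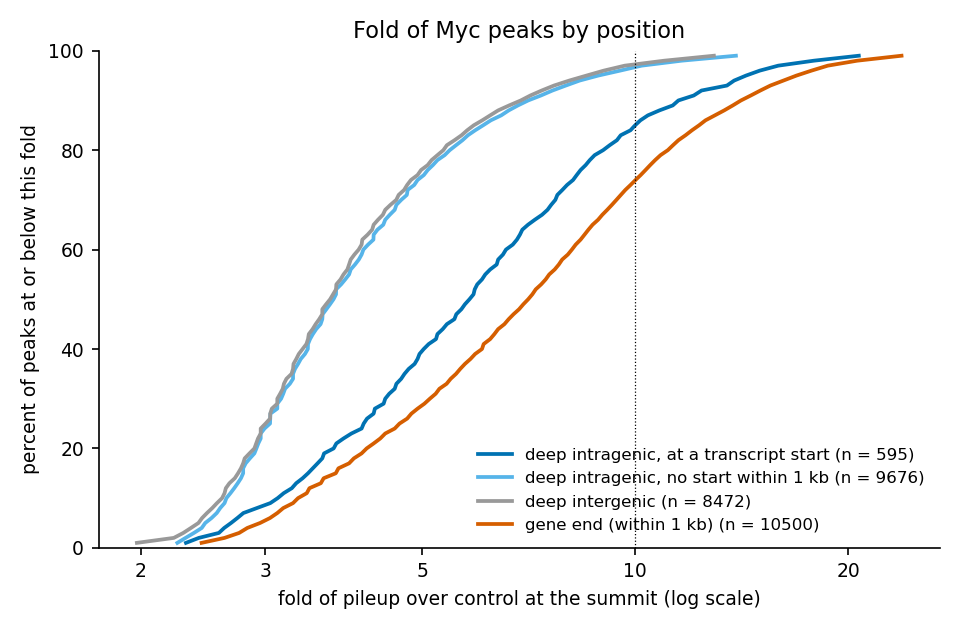
Cumulative distribution of fold (log axis) for 4 position classes of Myc peaks, each line giving the percent of peaks at or below a fold, with a dotted line at a fold of 10. The curve of deep intragenic peaks away from any transcript start runs beside that of deep intergenic peaks, and the 595 at a start lie between those and the gene-end peaks.

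The share of deep intragenic peaks fell as peaks got stronger. With all peaks cut into 10 groups of equal size by fold, they made up 29.3% of the weakest group and 9.30% of the strongest, over which the share of gene-end peaks went from 6.93% to 63.4%. The fold did not step at the distance limit: 391 peaks just inside it, 10 to 11 kb from a gene end, had a median of 3.94, and 416 just outside it, at 9 to 10 kb, had 3.77.

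Counted against the sequence available, deep peaks were denser inside genes than outside. The rule left 847.9 Mb of gene body, which held 12.1 deep intragenic peaks per Mb (95% exact Poisson interval 11.9 to 12.4), and 1314 Mb between genes, which held 6.41 per Mb (6.28 to 6.55). The ratio was 1.89, and the intragenic rate was the higher on 21 of 21 chromosomes, from 1.36 times on chromosome 12 to 5.02 times on chromosome 22. Assembly gaps and other stretches where no peak can be called were not removed from these lengths. The ratios, pooled and by chromosome, are thus not corrected for such sequence. Leaving out 1 Mb stretches without any peak lowered the pooled ratio to 1.51. In both kinds of sequence the rate fell with distance from the nearest gene end. Inside genes it went from 17.6 per Mb at 10 to 20 kb to 11.9 at 50 to 100 kb and 3.55 at 200 to 500 kb. At those distances outside genes it was 16.4, 9.37 and 3.07 per Mb, so at matched distance the rates were closer than the overall ratio.

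**Figure D2:**
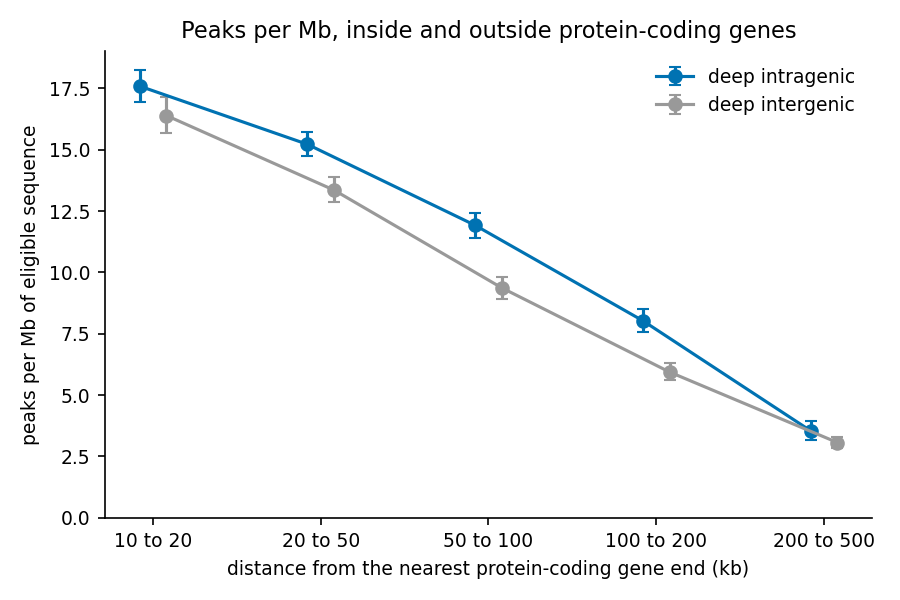
Peaks per Mb of eligible sequence against distance from the nearest protein-coding gene end, inside (blue) and outside (grey) protein-coding genes, with 95% exact Poisson intervals as bars. Both series fall with distance, and the intervals are apart from 20 kb to 200 kb, where the intragenic rate is the higher.

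The rate also differed between chromosomes, from 5.44 deep intragenic peaks per Mb on chromosome 14 to 29.1 on chromosome 19. The control at the summits differed as well. Its median was 5.09, the lowest value in the list, on chromosome 14, and 7.10 on chromosome 13, which held 17.2 peaks per Mb. Chromosomes 11, 15 and 20, with medians of 6.22, 6.22 and 6.28, held 19.01, 20.1 and 21.3 per Mb. Chromosome 7, with the same median as chromosome 20, held 12.4 per Mb. Chromosomes 17 and 19, with lower medians of 5.87 and 5.57, held 20.4 and 29.1 per Mb, so rate and control did not run in the same order. HT29 has gained and lost chromosomes, and whether copy number moves these rates was not tested.

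Deep intragenic peaks were denser towards the 5′ end only at 10 to 50 kb from a gene end. At 10 to 20 kb from an end, the rate was 19.7 per Mb (18.6 to 20.8) on the side nearer the 5′ end and 14.8 (13.9 to 15.8) on the side nearer the 3′ end. At 20 to 50 kb it was 16.3 and 13.7, and at 50 to 100 kb 12.2 on both sides. At 100 to 200 kb the rates were 8.70 and 8.64. At 200 to 500 kb they were 3.36 (2.84 to 3.93) and 4.30 (3.72 to 4.95), with intervals that overlap. Without the peaks at transcript starts the rates at 10 to 20 kb were 17.7 and 13.9. Genes with a Myc peak within 1 kb of the 5′ end held more deep peaks: 15.8 per Mb (15.4 to 16.2) in 5197 genes, against 8.38 (8.09 to 8.67) in 3209 genes without one. The order was the same within each range of eligible body. In genes with over 200 kb of it the rates were 11.7 and 5.12 per Mb. In those with 50 to 200 kb they were 17.3 and 13.1, and in those with up to 50 kb 21.4 and 18.1. Length was not matched in the range over 200 kb, where the median eligible body was 290.5 kb with a 5′ peak and 372.5 kb without. At 50 to 200 kb these medians were 88.4 and 90.9 kb. The part of length in the contrast over 200 kb was not tested. The 5′ end was that of the annotated span, so genes without a peak there can include some with no start listed there. The rates were closer to each other across the strength of the 5′ peak: over 4 groups of genes from the weakest to the strongest 5′ peak, the genes held 15.6, 15.2, 15.9 and 16.9 deep peaks per Mb.

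The strongest deep intragenic peak lay in SIPA1L3, which encodes a Rap GTPase-activating protein of epithelial polarity (chr19:38172740-38174759). It had a fold of 39.0 (interval 35.0 to 43.4) from a pileup of 332 fragments over a control of 7.53, above 99.98% of all peaks. Another of the gene's 18 deep peaks reached 23.6 (chr19:37931652-37934447), and the peak at its 5′ end had 10.4. GALK2 followed with 35.7 (chr15:49169517-49172054) and CASP8 with 30.7 (chr2:201257427-201259500). In GALK2 and CASP8 this was the gene's sole deep peak, and the 5′ end had a peak of 9.05 and 12.6. PPP5C, a serine/threonine phosphatase, had 28.1 (chr19:46372740-46374655) and THRAP3 25.8 (chr1:36223251-36225396), with no peak at the 5′ end of the annotated span of THRAP3. These 5 summits differed little in control, at 6.22 to 8.51, and their pileups were 185 to 332 fragments.

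The others of the 20 strongest had folds of 20.9 to 24.5. MRPS27, a mitochondrial ribosomal protein, had 24.5 (chr5:72307450-72309219) and SYNJ2, an inositol phosphatase, 24.4 (chr6:158059911-158061266). VAC14, the scaffold of the kinase complex that makes a phosphoinositide of endosomes, had 23.1 (chr16:70745745-70748709). The zinc finger genes ZNF331 and ZNF710 had 23.3 and 22.4. ZNRF3, a ubiquitin ligase that removes Frizzled receptors, had 21.8 (chr22:29003860-29005559). PPRC1, a coactivator of mitochondrial biogenesis, had 21.5 (chr10:102132376-102134503), and its 5′ end 4.78. DAGLA, which makes the lipid messenger 2-arachidonoylglycerol, had 21.2 (chr11:61699378-61701785). ITGB5, an integrin chain, had 20.9 (chr3:124834615-124836238) against 2.96 at its 5′ end. Of the 20, 5 lay on chromosome 19 and 6 within 1 kb of a transcript start. Of all 10271 deep intragenic peaks, 351 lay on chromosome 19 and 595 within 1 kb of a transcript start. The host's 5′ end was placed for 15 of the 20, and 11 of these also had a peak there. Over all eligible genes with a placed 5′ end, 5197 of 8406 had one, so 11 of 15 is no result about the strongest peaks.

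Deep intragenic peaks at transcript starts were stronger and wider than the others. Of the 10271, 595 had a summit within 1 kb of an annotated start (5.79%, 5.36% to 6.26%), 586 of them a start of the gene that holds the peak. Their median distance to it was 224 bp. Their median fold was 5.83, against 3.74 for the other 9676, and 15.1% against 3.28% reached a fold of 10. Their median width was 1119 bp against 586 bp. Of the 407 deep peaks with a fold of 10 or more, 90 were at a start (22.1%), against 5.12% of the weaker ones. These shares are lower bounds, since the start windows used here cover 15101 of 18411 protein-coding genes. Most of the strong deep peaks thus had no start within 1 kb in that table.

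Genes at internal starts had varied roles, and those named here were chosen after their values were seen. RUVBL1 had 17.9 (chr3:128122688-128124491) at its internal start and 5.02 at its 5′ end, and 5 deep peaks in all. ACLY had 17.9 (chr17:41917746-41920283) and 8.35 at the 5′ end. ACACA had 16.1 (chr17:37356287-37360837) and 10.8, with 8 deep peaks. SLC25A26, the mitochondrial carrier of S-adenosylmethionine, had 18.4 (chr3:66220454-66221788) and no peak at the 5′ end. VDAC1, the channel of the outer mitochondrial membrane, had 15.9 (chr5:134003562-134006014), 7 deep peaks and none at the 5′ end. KDM4C had 21.2 (chr9:6756812-6759682) and UBE2D2, a ubiquitin-conjugating enzyme, 20.7 (chr5:139560541-139563039), both without a peak at the 5′ end. The 5′ end here is the outer end of the annotated span, taken whether or not a start is listed there. Which of a gene's starts was in use was not measured. CLN6, a membrane protein of the endoplasmic reticulum lost in a lysosomal disease, had 19.9 (chr15:68227956-68230470) against 6.46. ING5, a subunit of histone acetyltransferase complexes, had 17.3 and 15.5, and ELF2, an ETS factor, 15.7 and 17.1, so in these 2 both starts were near in fold.

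Seen from the starts, internal ones were bound less often than outer ones. A peak lay within 1 kb of 598 of 2071 deep internal start sites (28.9%, 27.0% to 30.9%), against 60.3% of the sites within 1 kb of a 5′ end, and 52.9% of those in the same genes. In 936 genes with both kinds, 200 had a peak at both, 300 at the 5′ end only, 104 at the internal start only and 332 at neither. An internal start was bound in 40% of the genes with a peak at the 5′ end and in 23.9% of the others. Where both were bound, the internal peak was the stronger in 80 of 200 genes, and the median folds were 6.79 inside and 8.08 at the 5′ end. This comparison leaves out some of the strongest internal peaks. ACLY, PPRC1 and KLF16 had no start window at the 5′ end in the table, and the internal start of GALK2 lay within 1 kb of the end of another gene. THRAP3, KDM4C, UBE2D2, SLC25A26 and VDAC1, named above without a peak at the 5′ end, were outside this comparison as well.

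**Figure D3:**
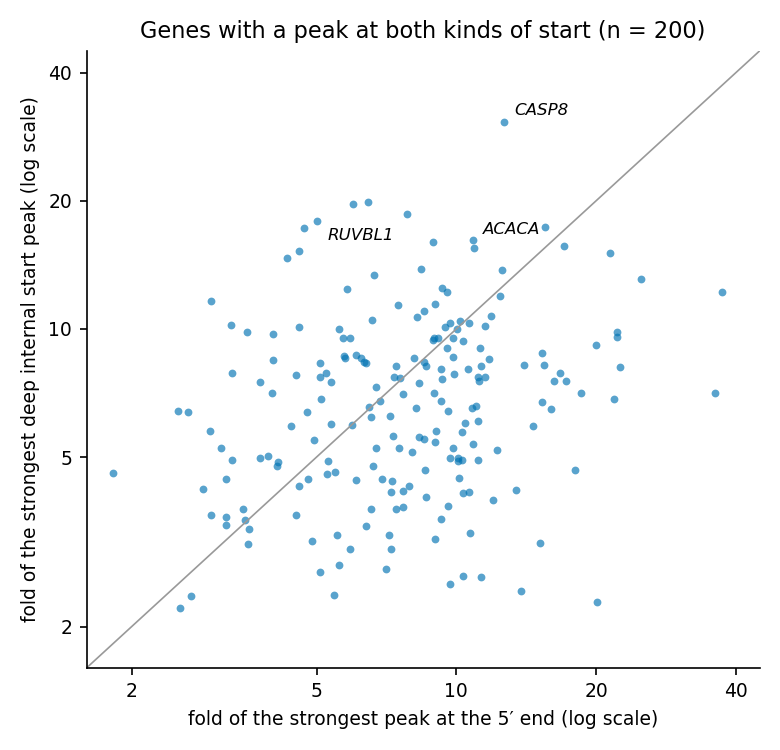
Fold of the strongest deep internal start peak against fold of the strongest peak at the 5′ end (both axes log) for the 200 genes with a peak at both. Points above the grey line of equal fold, 80 of 200, are genes whose internal start had the higher fold, with CASP8, RUVBL1 and ACACA labelled.

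The windows around internal starts differed by whether they were bound. The windows hold 250 bases before and 50 after each start, and the motifs were searched on both strands. The bound internal starts had a median of 17 CpG, the unbound ones 5 and bound 5′ ends 27. CACGTG was present in 46 of 598 bound windows (7.69%, 5.82% to 10.1%) and in 58 of 1473 unbound ones (3.94%, 3.06% to 5.06%), against 10.7% of bound 5′ ends and 8.18% of all start windows. The KLF and SP motif CCGCCC was in 54.0% of bound and 20.8% of unbound internal windows (55.8% of all), and the ETS motif CCGGAA in 14.9% and 7.40% (21.01% of all). The AP-1 motif TGANTCA was equally common in both, at 11.2% and 11.1%, and stood at 4.13% of bound 5′ ends (6.34% of all). The broad E-box CANNTG, which includes CACGTG, was in 67.7% and 76.9% (65.3% of all). The NRF1 motif GCGCATG was in 4.18% and 1.83% (5.19% of all).

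Internal starts with more CpG were bound more often. A peak was present at 15.2% of internal starts with up to 5 CpG in the window, 25.4% of those with 6 to 15 and 57.8% (53.5% to 61.8%) of those with 16 or more. Among the last, 28 of 37 windows with CACGTG were bound (75.7%, 59.9% to 86.6%), against 56.4% (52.1% to 60.7%) of those without it. Among windows with up to 5 CpG, 4 of 29 with CACGTG were bound (13.8%, 5.50% to 30.6%) and 15.2% of those without, and these shares differed by less than the counting error. These windows lie at starts: no sequence under the other 9676 deep peaks was used here.

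Deep intragenic peaks were spread over 3602 genes, 36.2% of the 9957 protein-coding genes with any sequence that met the rule. Of these genes, 1631 held 1 deep peak, 1347 held 2 to 4, 464 held 5 to 9 and 160 held 10 or more. The last 160 held 22.3% of all deep intragenic peaks. GSE1, a subunit of a histone deacetylase complex, held the most, with 39 in 457.0 kb of eligible body (85.3 per Mb, 60.7 to 117) and folds of 2.40 to 14.1. MECOM, which encodes the EVI1 transcription factor, held 28, and MICAL2, an actin-oxidising enzyme, 27. MYO1E, a membrane-bound myosin, held 27 as well, none over a fold of 7.21. PRKCA, the alpha form of protein kinase C, held 26, and MAML2, a coactivator of Notch, 23. TEAD1, a DNA-binding partner of YAP, and PDE4D, a cyclic AMP phosphodiesterase, held 22 each. In PDE4D these were spread over 1503 kb, at 14.6 per Mb, and in TEAD1 over 240.4 kb, at 91.5 per Mb.

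**Figure D4:**
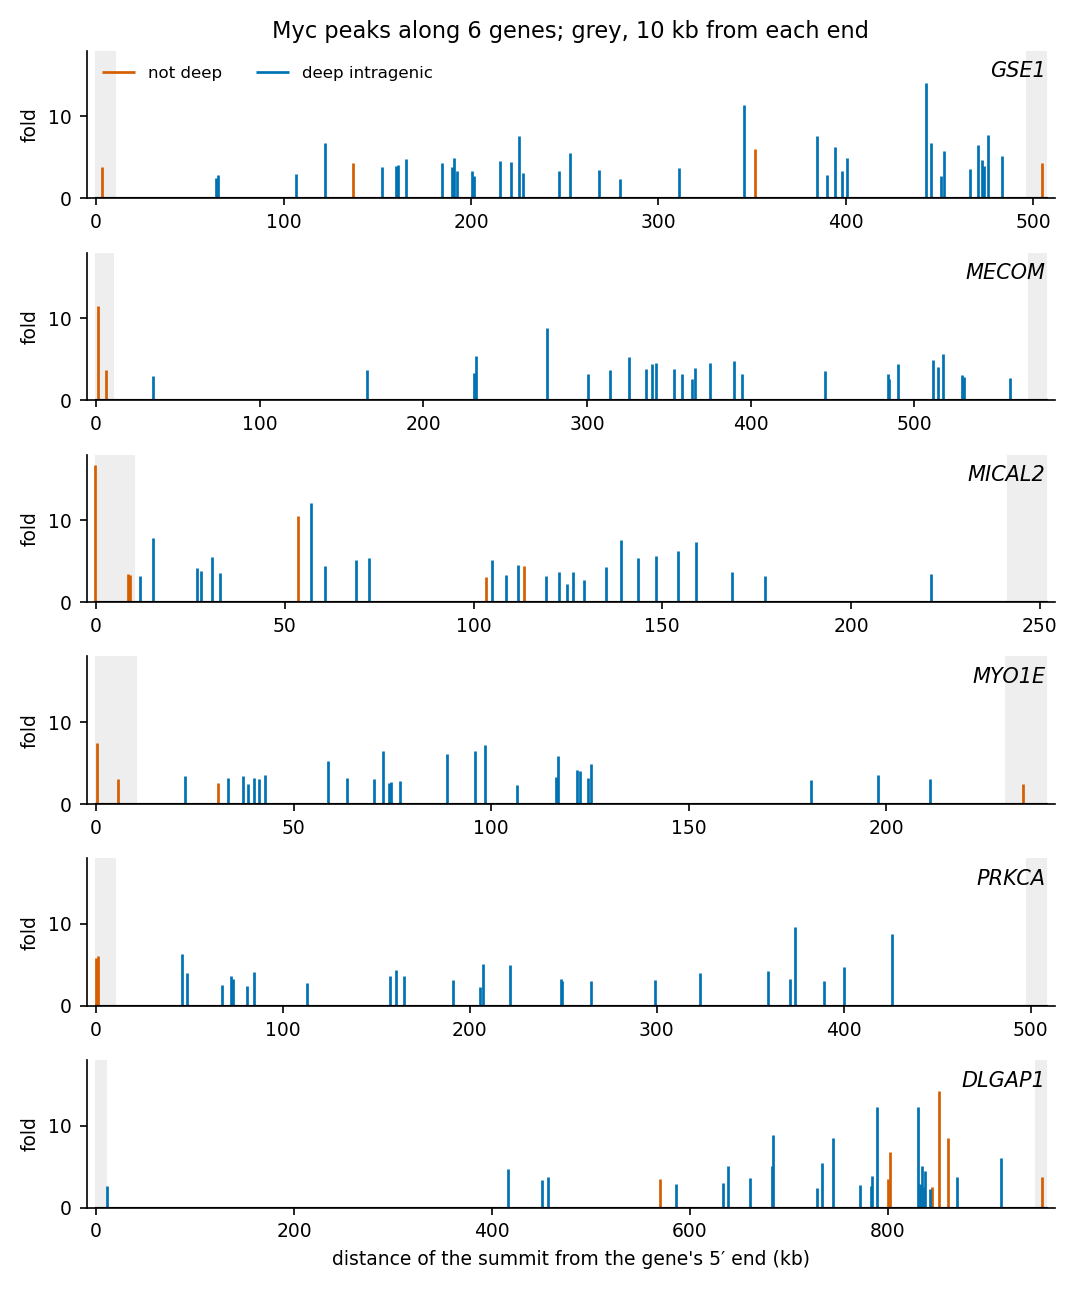
Myc peaks along 6 genes with many deep intragenic peaks, each line a summit with its height the fold, against distance from the gene's 5′ end. Blue lines are deep intragenic peaks, orange lines are peaks in the grey 10 kb at each end or within 1 kb of another gene's end, and in DLGAP1 nearly all deep peaks lie far from the 5′ end, in the part nearer the 3′ end.

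The densest genes had 11.2 kb to 70.2 kb of eligible body. With at least 5 deep peaks each, SMAD7, the inhibitor of TGF-beta signalling, held 6 in 11.2 kb (536 per Mb, 197 to 1166) and NECTIN2, a cell adhesion molecule, 8 in 22.9 kb (349 per Mb). ACTN4, an actin crosslinker, held 18 in 60.5 kb (298 per Mb), the strongest at 18.6. RNF43, the ubiquitin ligase that acts with ZNRF3 on Frizzled, held 11 in 45 kb (244 per Mb). PELI1, a ubiquitin ligase of innate immune signalling, held 8 in 31.8 kb, none over a fold of 5.35. At the other end, 852 of the 2282 genes with at least 100 kb of eligible body held no deep peak, and 85 of the 248 with at least 500 kb. The longest of these was PTPRD, a receptor phosphatase, with none in 2261 kb, which allows at most 1.63 per Mb by the upper exact Poisson limit. LRP1B, PCDH15, ROBO2 and NRXN3 had none in 1650 to 1852 kb each.

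Lists of genes by role were set against 36.2% of eligible genes and 12.1 peaks per Mb over all genes. The lists were chosen with earlier results of these data known, so their order by rate is description only. Both figures depend on length. Of genes with up to 50 kb of eligible body 22.3% held a deep peak, at 20.6 per Mb, of those with 50 to 200 kb 53.6%, at 16.02 per Mb, and of those with over 200 kb 64.4%, at 7.39 per Mb. The median gene span was 59.2 kb over all eligible genes and 87.8 kb or more in each list, so the share of genes with a peak in a list is read beside its rate, and its excess over 36.2% is no result about the list. In the WNT and beta-catenin pathway, which drives most colon cancers, 16 of 22 genes held a deep peak and the rate was 42.1 per Mb (34.0 to 51.7). Among its receptors and their regulators, ZNRF3 held 19, LRP5, the co-receptor, 13 with a top fold of 20.5 (chr11:68353127-68354929), RNF43 11, and LGR4, a receptor for R-spondin, 7 with a top of 16.4 (chr11:27401180-27402948). LRP6 held 2, neither over 2.73, and LGR5 none. In the destruction complex, AXIN1 held 3 with a top of 10.8, AXIN2 1 of 4.02 and APC 1 of 3.84, and that of APC lay at an internal start. Among the nuclear factors, TCF7L2 held 9 with a top of 15.2, and TNIK, a kinase that acts on it, 13 with a top of 6.58. TCF7L1 held 3, none over 3.19, and CTNNB1, LEF1 and EP300 held none. The list's median fold was 3.54, against 3.77 for all deep intragenic peaks, while 8 of its 92 peaks (8.70%) had a fold of 10 or more, against 3.96%.

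The list of intestinal transcription factors had 15 of 18 genes with a deep peak, at 38.5 per Mb (31.4 to 46.7). TEAD1 led with 22 and a top of 13.99 (chr11:12722523-12726392), followed by the ETS factor ETV6 with 14 and the Runt factor RUNX1 with 12. HNF4A, which controls genes of absorptive cells, held 6, with a top of 3.68. GATA6, a factor of gut identity, held 3 in 11.3 kb, and EHF, an epithelial ETS factor, 4 in 22.2 kb. ERG, an ETS factor of endothelium in the same list, held none in 268.9 kb. In the TGF-beta and SMAD list 11 of 15 genes held one, at 32.4 per Mb (23.8 to 43.1). SMAD3, the signal transducer, held 15, of which 3 were at internal starts, and SMAD6 and SMAD7, the inhibitors, 6 each. SMAD2 and SMAD4, though bound at the 5′ end with folds of 11.2 and 5.74, held none in 99.7 kb and 34.8 kb.

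Receptor kinases and adaptors had 15 of 17 genes with a deep peak, at 25.3 per Mb (19.5 to 32.1). MET, the receptor of hepatocyte growth factor, held 12 with a top of 16.2 (chr7:116723540-116725015), near the 16.5 at its 5′ end. EGFR held 7 with a top of 15.6 (chr7:55072121-55075640) and IGF1R 13 with a top of 9.40, both without a peak within 1 kb of the 5′ end. ERBB2 held 4 in 20.4 kb and ERBB4 1 in 1132 kb. Among epithelial adhesion and polarity genes 14 of 17 held one, at 21.7 per Mb (17.1 to 27.3). DST, a cytoskeletal linker of hemidesmosomes, held 17 with a top of 16.6 (chr6:56539527-56543729), TJP1, the tight junction protein ZO-1, 9, EZR, the villus linker ezrin, 7 in 33.6 kb, and CDH1, E-cadherin, 5 with a top of 6.77. PATJ, a polarity scaffold, held none in 384.2 kb.

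Chromatin enzymes and remodelers had 20 of 27 at 18.03 per Mb (14.5 to 22.1), with 11 in ARID1B and 8 in HDAC4, whose top was 13.9 (chr2:239246306-239248157). EZH2, the Polycomb methyltransferase, held 3 with a top of 5.79 against 17.4 at its 5′ end, and JARID2 and NSD2, bound at the 5′ end with 12.5 and 11.3, held none. In the network of MAX and MLX, the partners and rivals of Myc, 8 of 9 genes held a deep peak, at 16.8 per Mb (9.58 to 27.2), an interval that includes the rate of all genes. MLXIP and BPTF held 5 each and the others 1. That of MGA, a repressor that pairs with MAX, had 13.5 (chr15:41660431-41662484), 1048 bp from an annotated start of MGA. That of MXI1, a MAX partner that opposes Myc, had 10.0 (chr10:110225396-110227736) at an internal start, against 5.58 at its 5′ end. MAX itself held 1 of 3.61, against 10.0 at its 5′ end.

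Lipid metabolism is of interest because the cells were fed a fatty acid. Of 32 genes, 24 held a deep peak, at 21.6 per Mb (17.2 to 26.7), with a median fold of 3.61. In fatty acid synthesis, ACACA held 8, and ACACB, its mitochondrial form, 2 with a top of 4.81. SREBF1, the regulator of lipid synthesis, held 1 of 6.24 and SREBF2, that of cholesterol synthesis, 1 of 3.17, with 9.03 and 7.06 at their 5′ ends. In glycerolipid synthesis, DGAT2, which makes triglyceride and is named in the series title, held 2 deep peaks in 12.8 kb, of 5.57 and 4.30. GPAM, which starts the pathway, held 2 with a top of 8.72, LPIN2 and LPIN1, the phosphatidate phosphatases, 5 and 6 with tops of 9.56 and 6.79, and AGPAT3, an acyltransferase, 5. ACSL5, which activates fatty acids in gut cells, held 5 in 30.3 kb, none over 5.42, and ACSL1 held 2, both at internal starts. OSBPL3, an oxysterol-binding protein, held 8. In uptake and oxidation, CD36 held 2, none over 3.12, CPT1A, the gate of mitochondrial oxidation, 1 of 3.19, and HADHA and ACADM none. PPARGC1B held 3 and PPARGC1A, its relative, none in 655.5 kb. The list also holds LPP, a LIM-domain adhesion protein and no lipid enzyme, which held 10.

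**Figure D5:**
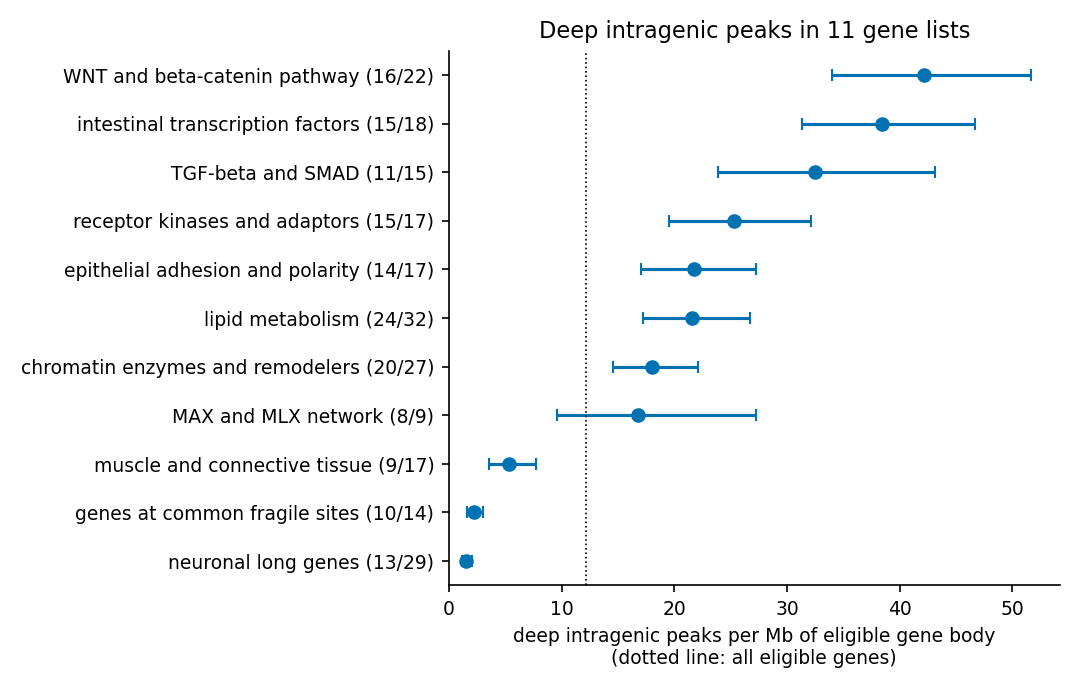
Deep intragenic peaks per Mb of eligible gene body in 11 gene lists, with 95% exact Poisson intervals as bars, the rate of all eligible genes as a dotted line, and the number of genes with a deep peak over the number eligible in brackets. The WNT list (42.1) and the intestinal factors (38.5) lie highest, and the long neuronal genes (1.55) and fragile site genes (2.24) lowest. Bars cover counting error only, and the lists were chosen with earlier results of these data known.

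Lists of genes of other tissues had low rates per Mb. Their shares of genes with a peak depend on length, and 64.4% of all genes with over 200 kb of eligible body held one. Of 29 long neuronal genes 13 held a deep peak, at 1.55 per Mb (1.14 to 2.04), and none of the 27 whose 5′ end was placed had a peak there. DLGAP1, a scaffold of excitatory synapses, held 25 of the list's 49 deep peaks, with a top fold of 12.3. GRIN2B, a glutamate receptor subunit, held 2 with a top of 12.6. RBFOX1 held 1 in 2420 kb, CNTNAP2 3 in 2252 kb, and DCC and ROBO1 none. Muscle and connective tissue genes had 9 of 17 at 5.34 per Mb (3.55 to 7.72), with 9 in LAMA2, 7 in COL4A2 (39.8 per Mb) and 5 in RYR1 (38.4 per Mb), and 0 of 14 had a peak at the 5′ end. The genes at common fragile sites, also very long, had 10 of 14 at 2.24 per Mb (1.63 to 3.01), though 8 of 9 had a peak at the 5′ end. In that list NAALADL2 held 12 and FHIT none in 1453 kb. Long genes have most of their body far from a gene end, where the rate was low in all genes, and the median length was 1114 kb in the neuronal and 1442 kb in the fragile site list, against 59.2 kb over all eligible genes. The part of length in these rates was not tested.

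The 5 deepest peaks were weak. The one farthest from any protein-coding gene end lay in DLG2, a synaptic scaffold, 956634 bp from it (chr11:84671634-84671967), with a fold of 2.46 (1.55 to 3.74) from a pileup of 20. CNTNAP2 followed at 834178 bp with 2.49. The next 3 all lay in PDE4D, 762168 to 770535 bp from an end, with 2.67 to 4.37. Strong peaks were also found nearly as deep: the strongest of PDE4D, with a fold of 16.1, lay 753.5 kb from the gene's 5′ end, and the strongest of NAALADL2, with 7.50, lay 659384 bp from an end. The widest deep intragenic peak lay in LMNA, which encodes the nuclear lamins A and C, and spanned 15494 bp (chr1:156115338-156130831) with a fold of 7.08. That in EPHA2, an ephrin receptor, spanned 14293 bp (chr1:16143193-16157485) with 8.83 and reached past the gene's 5′ end, since the rule placed peaks by summit alone. In SLC2A1, the glucose transporter GLUT1, 1 spanned 7147 bp (chr1:42940688-42947834) with 6.80, close to the 7.08 of the peak at the 5′ end.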

How the data were processed

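The series holds 7 CUT&RUN libraries and 1 peak list. Per the submitters' processing notes, FastQC 0.11.7, deepTools 3.5.0, MACS2 2.1.2, BWA 0.7.15, HOMER 4.11.1, SAMtools 1.5 and Picard 2.19.0 were used with hg38. Their settings, the control of the peak call and the joining of replicates were not given in the sources used here. For each peak the authors deposited a fold (a ratio), a −log10 p and a −log10 q, and a score that is, for nearly all peaks, 10 times the last as a whole number.

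From these, the pileup and control at each summit were recovered, within 0.001 of −log10 p for all 42572 peaks. The list gives no library depth. Fold intervals are exact Poisson on the pileup with the control held fixed, shares have 95% Wilson intervals, and rates have 95% exact Poisson intervals, with eligible sequence counted in steps of 100 bp between the outermost coding genes of each chromosome. Genes came from a RefSeq table of GRCh38.p14 that gives spans but no exons, so peaks were not assigned to introns or exons. Strand and transcript starts came from RefSeq start windows, and starts within 500 bp were merged. Genes without a window have no placed 5′ end. For genes with windows on 1 strand, the 5′ end is the end of the span on that strand, whether or not a start is listed there. A start within 1 kb of the 5′ end was listed for 13868 genes, while 15101 protein-coding genes had a window. The scripts ran in Python 3.11.15 with pandas 2.3.3, numpy 2.4.6 and scipy 1.17.1, and were tested on simulated peaks. By rule the text names the 20 strongest peaks, the 10 genes with the most and the 10 with the densest deep peaks, the 5 farthest and 3 widest peaks, and the 3 list members of highest fold in each list. Genes named at transcript starts, genes without a peak, other list members and the 7 printed sequences were chosen after their values were seen. The members and lists were chosen with earlier results of these data known. Some genes and 1 list that these rules pick are not reported here.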

Additional observations from a re-analysis of the deposited data

How the results depend on the processing

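Of 70 values recomputed under other settings, 41 stayed within 1.5 times of a count or within the counting interval of a share, median or ratio. The other 29 moved. Only the rate ratio could reverse, and it did so 0 times: the rate was higher inside genes than outside under every setting run. Keeping the strongest summit of each interval left every value unchanged, so its values among the 41 tell nothing. With 5 kb in place of 10 kb from coding gene ends, deep intragenic peaks were 29.6% of all peaks, 4.39% of them had a fold of 10 or more, and the rate ratio was 1.83. With 20 kb these were 17.6%, 3.54% and 1.99. With 50 kb, 3654 peaks in 1145 genes were left, with 8.58%, 2.82%, a median fold of 3.73 and a ratio of 2.13. With 10 kb from other gene ends, the share was 18.6% and the ratio 2.29, and without regard to other genes 25.6%, 4.38% at a fold of 10 or more, and 1.74. When the whole interval had to meet the distances, the share was 23.4%. At a −log10 q of 5 or more, 6664 peaks were left, 22% of all, with a median fold of 4.63, 6.11% at a fold of 10 or more and a ratio of 1.95. Without peaks of 2 kb or wider, the share was 25.8%, the median 3.73 and 2.66% had a fold of 10 or more. The ratio was 1.51 without 1 Mb bins that hold no peak and 2.04 without the spans of non-coding genes. Within 500 bp of a transcript start lay 4.69% of deep intragenic peaks. The number of genes with a deep peak stayed within 1.5 times in each list at 20 kb.

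No paired analysis was possible because the peak list has no column for any library. Leaving out a replicate was not possible for the same reason. The planned search for motifs at summits was not run, since no genome sequence was used here, and start windows were searched instead. Without library values, replicate error and differences between Myc and IgG at a given peak were not measured. A weak deep peak rests on few fragments: the lowest pileup was 14.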
